A study of Mus musculus with 2 samples.

Results

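The MCM, Cdc45 and GINS genes encode the machine that opens DNA for copying. Of the 32285 genes in the count tables, 10 were described here, listed by symbol: Mcm2, Mcm3, Mcm4, Mcm5, Mcm6 and Mcm7, Mcm10, Cdc45, Gins1 and Gins2. They were chosen with earlier results of these data known. All 10 were found in both tables and were above the expression floor over all cells, which was 20 counts-per-million (CPM) in 1 library and 50 unique molecular identifiers (UMIs) over both. In the Trsp knockout library Mcm7 was 1.41-fold lower than in the control library, and it was lower in each of the 9 cell classes compared. The other subunits stood near the control level or above it in most classes.

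The cells were Lineage−, cKit+ bone marrow cells from femora and tibiae of C57BL/6 mice, a fraction that holds blood stem cells and their early progeny. The knockout library came from Trsp f/f:Mx1-Cre mice and the control library from Trsp f/f mice, so both carried the floxed Trsp gene, which encodes the tRNA that inserts selenocysteine into selenoproteins. Mx1-Cre is driven by an interferon-inducible promoter, which is active in many tissues, so deletion is not limited to the cells measured. Knockout and control mice alike were injected with pI-pC, an RNA mimic of viral infection that induces interferon, as 3 doses of 500 µg per mouse on alternate days, with sampling 9 weeks after the last dose; the record places the injections at 7 weeks after birth in wording that leaves the exact age open. Cells had been frozen and thawed. There was 1 library per genotype, and the sources used here do not give the number of mice in each. No test was therefore made and no difference has a replicate check. All intervals are at 95% and cover counting error only.

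The knockout library kept 6640 of 11556 barcodes (median 20744 UMIs per kept cell) and the control library 8046 of 14372 (median 20352). The libraries differed in their shallow cells, since 1127 kept knockout cells and 277 kept control cells had fewer than 5000 UMIs, and 10 barcode sequences occurred among the kept cells of both. Kit, the receptor used for the sort, stood at 114 CPM in knockout and 98.8 CPM in control cells, while Cd3e and Ly6g, surface markers of mature T cells and neutrophils, had at most 8 UMIs in either library. Trsp itself was not analysed here. As a check of the genotype labels, Gpx1 and Gpx4, which encode selenium-dependent glutathione peroxidases, stood at 253 and 126 CPM in knockout cells against 1508 and 397 CPM in control cells. Cells were assigned to classes from fixed marker genes that include none of the 10, and 9 classes had at least 100 kept cells in each library.

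Before S phase, origin recognition proteins with Cdc6 and Cdt1 load a ring of Mcm2, Mcm3, Mcm4, Mcm5, Mcm6 and Mcm7 onto DNA in an inactive form. At the start of S phase Cdc45 and the GINS complex, which includes Gins1 and Gins2, join the ring to make the active CMG helicase, and Mcm10 helps it begin to unwind. E2F transcription factors are known to drive many of these genes as cells enter the cycle, and reduced amounts of MCM proteins are known in mice to leave blood stem cells prone to replication stress.

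Promoters are printed for the ring genes whose promoter holds an E2F motif, which were Mcm7, Mcm6, Mcm5 and Mcm3. RefSeq promoters (GRCm38.p6, 250 bases before to 50 after the start) were matched for 7 of the 10 genes: Mcm2, Mcm3, Mcm5, Mcm6, Mcm7, Mcm10 and Cdc45. Sequences run 5′ to 3′ on the gene's strand, and capitals mark matches to TTTNNCGC on either strand; where 2 matches overlap the capitals run on.
Mcm7 promoter, chr5:138171834-138172133, minus strand: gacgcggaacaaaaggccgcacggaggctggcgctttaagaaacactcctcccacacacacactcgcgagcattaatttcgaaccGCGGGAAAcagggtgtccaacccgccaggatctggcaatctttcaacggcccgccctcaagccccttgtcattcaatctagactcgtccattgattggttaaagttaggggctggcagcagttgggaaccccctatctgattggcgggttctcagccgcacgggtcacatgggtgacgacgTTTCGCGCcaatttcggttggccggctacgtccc
Mcm6 promoter, chr1:128359656-128359955, minus strand: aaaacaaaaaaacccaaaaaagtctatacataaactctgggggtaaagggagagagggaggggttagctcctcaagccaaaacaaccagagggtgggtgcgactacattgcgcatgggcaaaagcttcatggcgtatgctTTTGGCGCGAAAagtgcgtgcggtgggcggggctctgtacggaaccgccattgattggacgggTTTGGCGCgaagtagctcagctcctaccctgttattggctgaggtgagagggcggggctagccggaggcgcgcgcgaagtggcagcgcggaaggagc
Mcm5 promoter, chr8:75109259-75109558, plus strand: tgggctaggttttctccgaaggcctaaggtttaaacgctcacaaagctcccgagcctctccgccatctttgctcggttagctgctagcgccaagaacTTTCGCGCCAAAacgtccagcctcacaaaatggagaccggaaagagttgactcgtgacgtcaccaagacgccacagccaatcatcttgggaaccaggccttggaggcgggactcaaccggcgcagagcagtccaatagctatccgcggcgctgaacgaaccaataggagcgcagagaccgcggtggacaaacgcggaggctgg
Mcm3 promoter, chr1:20820263-20820562, minus strand: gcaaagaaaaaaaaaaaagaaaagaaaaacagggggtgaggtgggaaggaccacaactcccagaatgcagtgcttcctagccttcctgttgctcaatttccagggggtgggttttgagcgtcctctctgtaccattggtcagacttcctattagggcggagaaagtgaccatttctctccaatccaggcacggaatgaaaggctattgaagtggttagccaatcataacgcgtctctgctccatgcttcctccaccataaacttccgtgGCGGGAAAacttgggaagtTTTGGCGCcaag

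The motif was present in 4 of these 7 genes, against 5.93% of the 27025 genes with a promoter in the table. Mcm7 had 2 promoters in the table, and the one printed, whose start lies farther upstream, held both of its matches. The 2 Mcm7 matches began 165 bases before and 16 bases after the start. The CCAAT motif was found on either strand in 7 of 7 genes (41.1% of all genes with a promoter), and TTTGAA, a motif found in cell-cycle genes, in 2 of 7 (20.2% of all such genes). These are matches of letters in a window and were not tested as binding sites. Any part of the motifs in the ratios between the libraries was not tested.

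Mcm7, a ring subunit (ENSMUSG00000029730, mm10 chromosome 5, 138164583 to 138172422, minus strand), gave 23814 UMIs in knockout and 40423 UMIs in control cells. Its level was 172 CPM in the knockout library and 243 CPM in the control library, a log2 ratio of −0.50 (−0.52 to −0.47). Of 6096 measured genes only 48 had a lower ratio. Of the 10 genes Mcm7 alone was lower by 1.2-fold or more, where 2.71% of measured genes passed that size in that direction. At 1.5-fold lower the count was 0 of the 10 genes, with 0.607% of measured genes.

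The other ring subunits did not share this ratio. Mcm6 stood at 212 CPM in knockout and 182 CPM in control cells (0.22, 0.20 to 0.24). Mcm2 stood at 126 and 113 CPM (0.16, 0.13 to 0.19), and Mcm5 at 185 CPM in knockout and 170 CPM in control cells (0.12, 0.10 to 0.15). These 3 subunits were higher in the knockout library beyond counting error, by less than 1.2-fold. The median of all measured genes was itself 0.08. With median-of-ratios size factors Mcm6 stood at 0.135, Mcm2 at 0.077 and Mcm5 at 0.037. Mcm3 stood at 210 CPM in knockout and 202 CPM in control cells (0.05, 0.03 to 0.07), and this small difference turned to −0.03 when libraries were scaled by median-of-ratios size factors. Mcm4 stood at 87.2 CPM in knockout and 88.7 CPM in control cells, with an interval that spanned 0 (−0.06 to 0.01).

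Among the factors that join or start the helicase, Mcm10 had the highest ratio. It stood at 40.2 CPM in knockout and 31.8 CPM in control cells (0.34, 0.28 to 0.39), and was the only one of the 10 genes at least 1.2-fold higher, where 11.5% of measured genes passed that size in that direction. Under median-of-ratios size factors no member reached it. Cdc45 stood at 43.9 CPM in knockout and 38.4 CPM in control cells (0.19, 0.14 to 0.24). Gins1 stood at 26.7 and 24.7 CPM (0.12, 0.05 to 0.18), and Gins2 at 42.1 CPM in knockout and 45.3 CPM in control cells (−0.11, −0.16 to −0.06). The 2 GINS genes thus lay on opposite sides of 0, though the Gins2 level is uncertain because the gene overlaps Gse1. With median-of-ratios size factors Cdc45 stood at 0.109, Gins1 at 0.031 and Gins2 at −0.190. As a mean over cells Gins1 stood at 0.047. At 1.5-fold higher the count was 0 of the 10 genes, with 1.02% of measured genes.

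**Figure D1:**
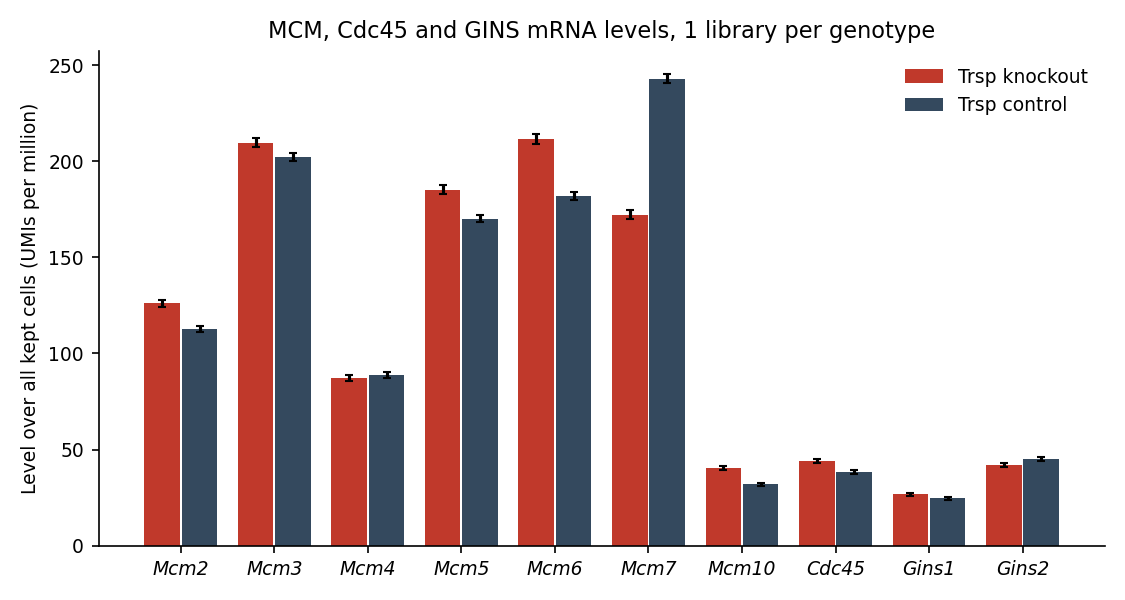
Level of each gene over all kept cells in CPM (vertical axis, from 0), for the knockout library (red) and the control library (dark blue); error bars are exact 95% Poisson intervals for counting error, with 1 library per genotype. Mcm7 is at 172 in the knockout bar and 243 in the control bar, while the other 9 pairs differ by less, as for Mcm6 (212 and 182).

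Summed over the 10 genes, the knockout library held 1145 CPM (1139 to 1151) and the control library 1139 CPM (1134 to 1144), a log2 ratio of 0.01 (−0.002 to 0.02). Over all cells the summed mRNA was thus nearly equal in CPM while its make-up differed. The median of all measured genes was itself above 0 in CPM. In the 9 classes compared, the log2 ratio of the sum lay between −0.16 (HSC-like, −0.20 to −0.11) and 0.18 (dendritic cell-like, 0.09 to 0.27). The median log2 ratio of the 10 genes was 0.12 (0.07 to 0.16), beside 0.08 over all measured genes.

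Mcm7 was next set against the other ring subunits within each library, a comparison that library scaling cannot change. Mcm7 made up 17.4% of the UMIs of Mcm2 to Mcm7 in knockout cells (17.2 to 17.6) and 24.3% in control cells (24.1 to 24.5). The log2 ratio of Mcm7 to the other five, knockout over control, was −0.61 (−0.64 to −0.59). It was −0.62 in cells with at least 5000 UMIs, where the shallow knockout cells are left out, and −0.60 in cells under 5% mitochondrial UMIs with at least 1000 genes (the median mitochondrial share was 4.62% in knockout and 3.78% in control cells). By the same measure Mcm6 stood at 0.29 (0.26 to 0.31), Mcm2 at 0.19, Mcm5 at 0.16 and Mcm3 at 0.08, and the interval of Mcm4 spanned 0 (−0.05 to 0.02). Since these values share the Mcm7 UMIs, a lower Mcm7 raises those of the others.

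In HSC-like cells (511 knockout and 667 control cells, led by Hlf and Mecom), Mcm7 stood at 138 CPM in the knockout and 198 CPM in the control library, a log2 ratio of −0.52 (−0.64 to −0.41). Its share of ring UMIs was 18.8% in knockout and 23.9% in control HSC-like cells. Among multipotent or lymphoid-primed progenitor-like barcodes (562 and 501) Mcm7 stood at 153 CPM in the knockout and 236 CPM in the control library (−0.63), with shares of 16.9% and 24.2%. This was the lowest Mcm7 ratio of the 9 classes, with an interval of −0.73 to −0.53. It lay past 1.5-fold lower, where 0.616% of genes measured in that class passed that size. Its interval also took in differences smaller than 1.5-fold.

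The myeloid progenitor classes, the most numerous, gave similar values. In neutrophil progenitor-like cells (1050 and 1583 cells) Mcm7 stood at 156 CPM in the knockout and 215 CPM in the control library (−0.47), and in monocyte progenitor-like cells (1070 and 1667 cells) at 196 and 281 CPM (−0.52). The shares were 17.7% in knockout and 24.8% in control neutrophil progenitor-like cells, and 17.0% and 24.5% in monocyte progenitor-like cells. In early erythroid-like cells (235 and 161 cells), which with monocyte progenitor-like cells had the highest Mcm7 levels, Mcm7 stood at 199.98 CPM in the knockout and 298.77 CPM in the control library (−0.58).

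The ratios nearest 0 were in dendritic cell-like cells (194 and 200 cells; 121 CPM in the knockout and 149 CPM in the control library, −0.30, −0.52 to −0.09) and megakaryocyte-like cells (192 and 231 cells; 190 and 238 CPM, −0.33). Basophil or mast-like cells (297 and 446 cells) had 139 CPM in the knockout and 188 CPM in the control library (−0.44), and eosinophil-like cells (137 and 193 cells) had 152 and 199 CPM (−0.39). Eosinophil-like knockout cells were shallower, with a median of 8965 UMIs against 15306 in control cells. The interval of the Mcm7 ratio lay below 0 in 9 of 9 classes, and with the classes in the order of their ratios, the intervals of neighbours overlapped. Mcm7 was the 1 member at least 1.2-fold lower in each class, where the share of measured genes past that size in that direction was 6.53% in HSC-like, 4.83% in multipotent or lymphoid-primed, 3.75% in neutrophil progenitor-like and 2.72% in monocyte progenitor-like cells. It was 11.5% in dendritic, 7.86% in basophil or mast-like, 13% in eosinophil-like, 13% in early erythroid-like and 10.2% in megakaryocyte-like cells.

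**Figure D2:**
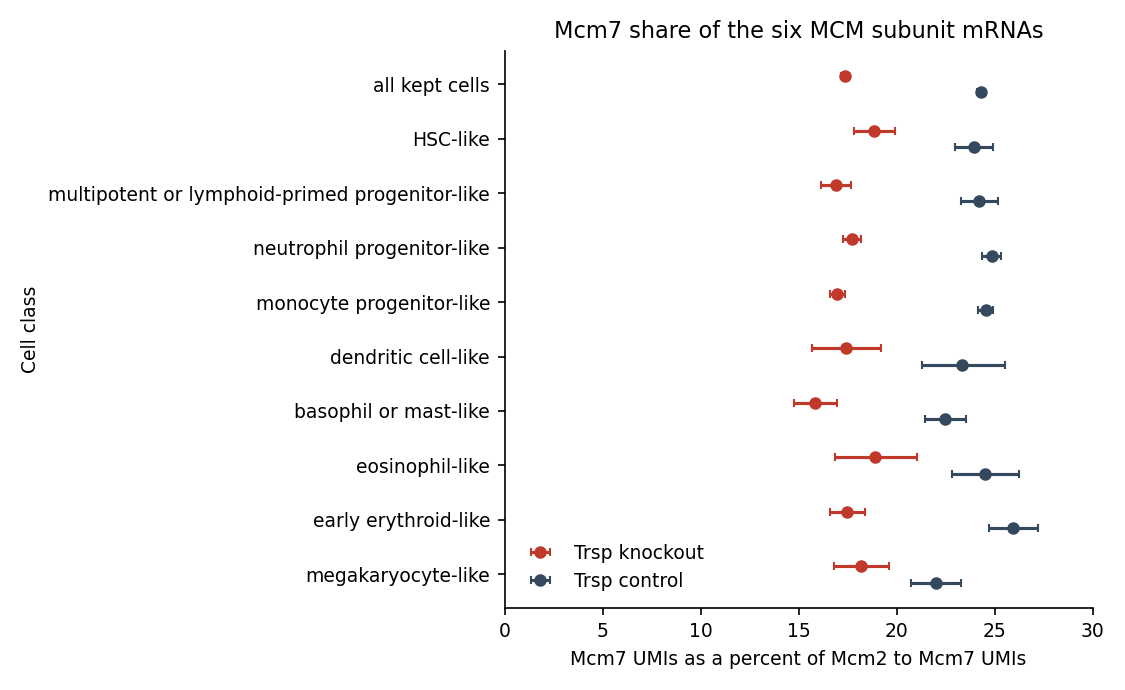
Mcm7 UMIs as a percent of all Mcm2 to Mcm7 UMIs (horizontal axis, from 0) over all kept cells and in 9 marker-gated classes (rows), for the knockout library (red) and the control library (dark blue); bars are exact 95% binomial intervals for counting error. Over all cells the points are at 17.4% and 24.3%, and in every row the knockout point lies left of the control point.

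The lower share did not rest on 1 partner gene. Mcm7 was set against each of the other 9 genes in each of the 9 classes, and the log2 ratio of ratios was below 0 in 81 of 81 pairs and had an interval below 0 in 74. It lay between −1.197 and −0.14. The pairs share the Mcm7 counts and are not independent. The 7 pairs whose interval reached 0 were with Gins1 in HSC-like cells, Gins2 in dendritic cell-like, eosinophil-like and megakaryocyte-like cells, Mcm4 in eosinophil-like and megakaryocyte-like cells, and Cdc45 in megakaryocyte-like cells.

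Mcm6, Mcm2, Mcm5, Mcm3 and Mcm4 varied more between classes. Mcm6 had a positive ratio in 9 of 9 classes and an interval above 0 in 8, with the exception of the HSC-like class (173 CPM in knockout and 167 CPM in control cells, 0.05, −0.06 to 0.16). Its highest ratios were in dendritic cell-like cells (149 and 114 CPM, 0.38) and basophil or mast-like cells (224 CPM in knockout and 174 CPM in control cells, 0.37). Mcm2 was higher beyond counting error in 3 classes, with the largest difference in neutrophil progenitor-like cells (115 CPM in knockout and 94.2 CPM in control cells, 0.29), where the median of all measured genes was itself 0.13. Mcm4 had an interval below 0 in neutrophil progenitor-like cells (78.5 and 86.9 CPM, −0.15) and early erythroid-like cells (93.3 CPM in knockout and 106 CPM in control cells, −0.18). The Mcm4 interval in early erythroid-like cells reached 0 under either stricter cell filter (−0.05 and −0.17). So did that of Mcm6 in megakaryocyte-like cells with the gene and mitochondrial filter (0.05) and in eosinophil-like cells of at least 5000 UMIs (0.20), and that of Mcm5 in basophil or mast-like cells of at least 5000 UMIs (0.14).

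Mcm5 and Mcm3 had ratios on both sides of 0. In HSC-like cells Mcm5 stood at 108 CPM in the knockout and 127 CPM in the control library (−0.24, −0.37 to −0.11), while in early erythroid-like cells it stood at 242 and 195 CPM (0.31, 0.19 to 0.43). Mcm3 was lower in HSC-like cells (151 CPM in knockout and 169 CPM in control cells, −0.16, −0.27 to −0.05) and among the multipotent or lymphoid-primed progenitors (184 and 206 CPM, −0.16). In cells of 1000 or more genes and a mitochondrial share below 5%, Mcm5 in HSC-like cells stood at −0.17 (−0.32 to −0.02) and Mcm3 at −0.12, with an interval that reached 0 (−0.24 to 0.01). The positive Mcm3 ratios in neutrophil progenitor-like cells (189 CPM in knockout and 170 CPM in control cells, 0.16) and monocyte progenitor-like cells (0.08) were close to the medians of all genes measured there, and stood at 0.03 and 0.002 relative to them. Relative to those medians Mcm5 kept its sign, at −0.25 in HSC-like and 0.26 in early erythroid-like cells. Differences between classes were not tested.

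Mcm10 had a positive ratio in 9 of 9 classes, with an interval above 0 in 5. In HSC-like cells it stood at 27.6 CPM in the knockout and 19.3 CPM in the control library (0.51, 0.22 to 0.81), from 206 and 177 UMIs. In dendritic cell-like cells it stood at 46.2 CPM in the knockout and 24.9 CPM in the control library (0.89, 0.44 to 1.36), from 123 and 62 UMIs. Cdc45 in the same dendritic cell-like cells stood at 38.0 and 24.1 CPM (0.66, 0.18 to 1.14). Mcm10 and Cdc45 were the members at least 1.5-fold higher in that class, where 6.22% of measured genes passed that size. Cdc45 was positive in 8 of 9 classes and had an interval above 0 in 4.

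At 1.2-fold higher, no member passed among the multipotent or lymphoid-primed progenitors (11.1% of measured genes), Mcm10 alone in HSC-like (9.53%) and monocyte progenitor-like cells (11.7%), and Mcm2 and Mcm10 in neutrophil progenitor-like cells (27.5%). In dendritic cell-like cells Mcm6, Mcm10, Cdc45 and Gins1 passed (24.3%), in basophil or mast-like cells Mcm6 and Cdc45 (14.8%), and in eosinophil-like cells Mcm10 and Gins1 (25.5%). In early erythroid-like cells Mcm5 and Mcm6 passed (20.4%), and in megakaryocyte-like cells Mcm10 and Gins1 (19.4%). Gins1 was below the floor in HSC-like and basophil or mast-like cells, which left 9 of the 10 genes measured there. Mcm10 in HSC-like cells (27.6 CPM in knockout and 19.3 CPM in control cells) reached 20 CPM in the knockout library only. So did Gins1 in dendritic cell-like (22.6 and 15.7 CPM) and eosinophil-like cells (20.04 and 15.09 CPM). Such members were counted as measured, and as higher, only through the library where they were higher. Gins2 was negative in 8 of 9 classes, with intervals that reached 0 in each.

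**Figure D3:**
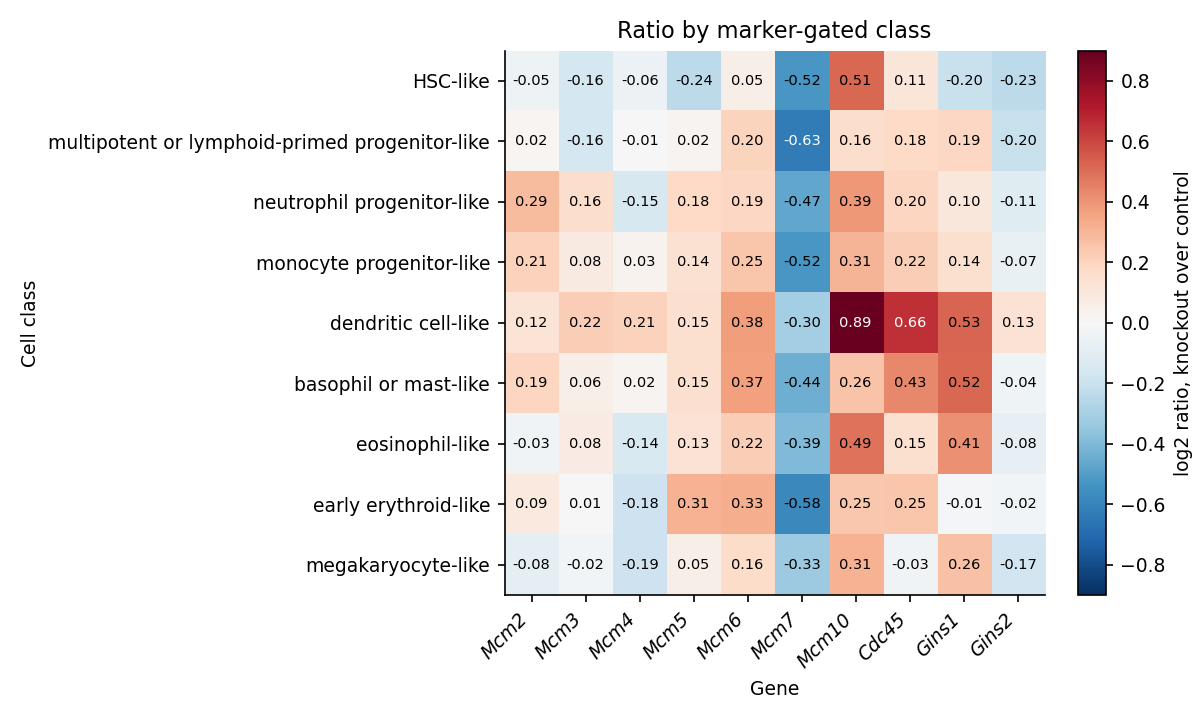
Log2 ratio of the level in the knockout library over the control library for each gene (columns) in 9 marker-gated classes (rows); red is higher and blue lower in the knockout library, and the value is printed in each cell. The Mcm7 column is blue in all 9 rows (−0.63 to −0.30), and the Mcm6 and Mcm10 columns are red or near white in all 9.

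The level of the whole set depended on the cell class in both libraries. Summed over the 10 genes it was highest in monocyte progenitor-like (1349 CPM in knockout and 1323 CPM in control cells) and early erythroid-like cells (1327 and 1319 CPM). It was lowest in HSC-like cells in the knockout library (828 CPM, against 923 CPM in control HSC-like cells) and in the dendritic class in the control library (734 CPM, against 833 CPM in its knockout cells). HSC-like cells had the lowest class median over the 10 genes, at −0.11 (−0.25 to 0.10), beside 0.01 over all measured genes there. In cells of 1000 or more genes and a mitochondrial share below 5% the HSC-like median was 0.01, on the other side of 0 and no longer the lowest of the classes. The 8 other classes had medians between −0.03 (megakaryocyte-like) and 0.21 (dendritic cell-like).

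Outside the 9 classes, mature B or plasma-like cells, which a Lineage− sort should leave out, held 489 CPM of the 10 genes in 119 knockout cells and 277 CPM in 79 control cells. The median depth of those knockout cells was only 3802 UMIs, against 23392 UMIs in the control cells. Mcm7 there stood at 76.4 CPM in knockout and 54.4 CPM in control cells (0.49, 0.07 to 0.91), and in T, NK or innate lymphoid-like cells at 128 and 95.5 CPM (0.42, −0.12 to 0.96), so these 2 small classes had a positive Mcm7 ratio. In both, the 10 genes together were higher in the knockout library, and against the other five the Mcm7 ratio was −0.38 (−0.83 to 0.07) and −0.21 (−0.78 to 0.36). Early B-lymphoid-like, maturing neutrophil-like and macrophage-like cells, also too few to compare, had Mcm7 ratios of −0.24 (−0.52 to 0.03), −0.50 and −0.54.

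After thinning to 5000 UMIs, Mcm7 gave at least 1 UMI in 52.5% of 5513 knockout cells (51.1 to 53.8) and 62.7% of 7769 control cells (61.6 to 63.8); unthinned shares were 77.0% and 86.3%. Mature B or plasma-like cells gave 27.5% of 51 knockout and 23.0% of 74 control cells. Pooled over the cells of this class, the G2 and M list stood at 746 CPM in knockout and 262 CPM in control cells. A few cells could set a pooled value. The class need not lack Mcm7, and how much of any share is free RNA was not tested. In the early erythroid and dendritic classes the thinned share went against the CPM (68.9% of knockout and 64.8% of control early erythroid-like cells), and no order is read from it there.

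Because these genes follow the cell cycle, the cells were also placed by the UMIs of 16 S phase genes and, separately, 20 G2 and M phase genes, in each case from outside the 10. Thinned cells were divided into 3 bins at the same limits in both libraries: 5 and 9 UMIs for the S phase list, 2 and 9 for the G2 and M list. The highest S phase bin held 34.1% of knockout and 32.1% of control cells, and the highest G2 and M bin 33.2% and 29.4%. All 10 genes were higher in the highest than in the lowest S phase bin in both libraries, by 2.06-fold (Mcm6) to 3.32-fold (Mcm10) in knockout cells and by 2.05-fold (Mcm2) to 3.24-fold (Mcm10) in control cells. Across the G2 and M bins the pattern divided the set: Mcm10 was 1.91-fold higher in the highest than in the lowest bin in knockout cells (1.72-fold in control cells) and Cdc45 1.53-fold (1.55-fold in control cells), while Mcm2 stood at 0.66 times and Mcm4 at 0.68 times the lowest bin in knockout cells (0.59 and 0.60 times in control cells).

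Mcm7 was lower in the knockout library in every bin. From the lowest to the highest S phase bin it stood at 103, 175 and 227 CPM in knockout cells and at 147, 246 and 330 CPM in control cells. Its share of ring UMIs was 17.1%, 17.5% and 17.3% in knockout cells and 24.0%, 24.5% and 24.3% in control cells, so the log2 ratio to the other five was −0.62 in each S phase bin. Across the G2 and M bins the share was 16.7%, 17.2% and 18.0% in knockout cells and 22.0%, 23.7% and 27.6% in control cells. The log2 ratio to the other five was −0.49 (−0.55 to −0.44), −0.58 (−0.62 to −0.54) and −0.79 (−0.84 to −0.75) in the lowest, middle and highest G2 and M bin. Cells in the lowest bin of both lists gave −0.49, and cells in the highest bin of both gave −0.78. Each bin mixes cell classes, whose part in this was not tested.

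**Figure D4:**
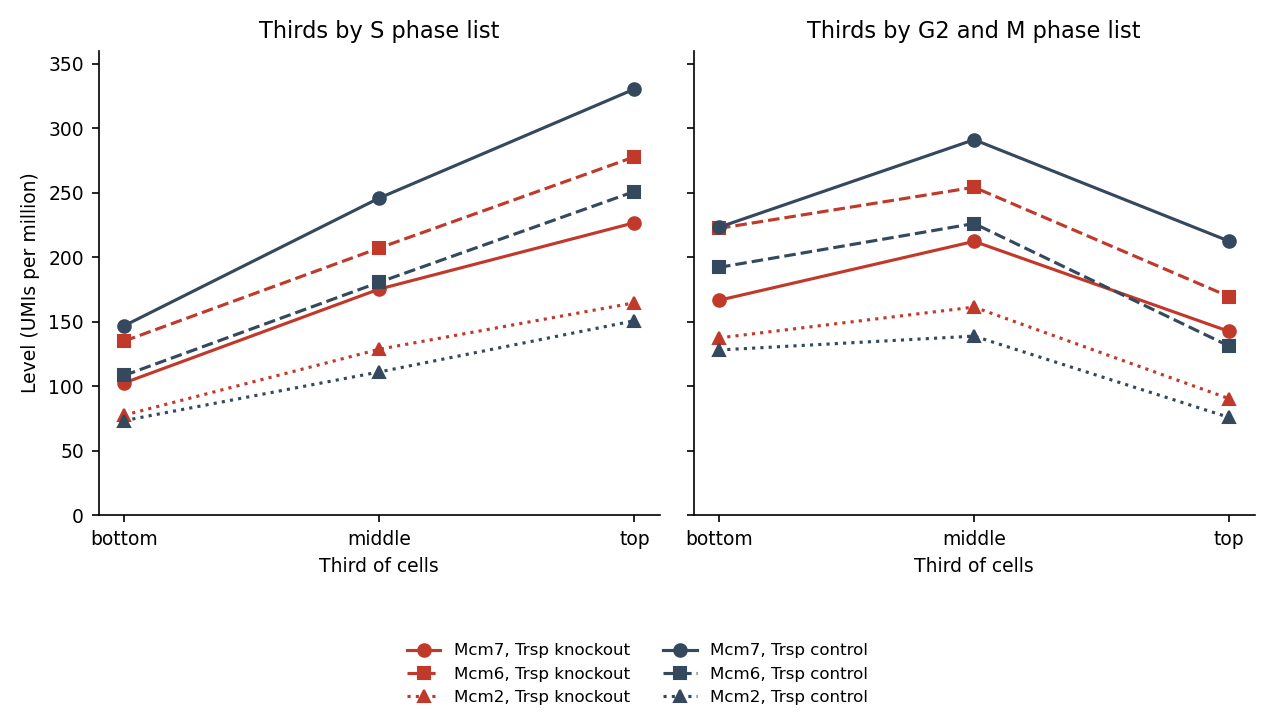
Level in CPM (vertical axis, from 0) of Mcm7 (circles), Mcm6 (squares) and Mcm2 (triangles) in bottom, middle and top bins of cells by S phase genes (left) and by G2 and M phase genes (right), for the knockout library (red) and the control library (dark blue). In the S phase panel Mcm7 climbs across the bins in both libraries, with the knockout line (103, 175 and 227) below the control line (147, 246 and 330), while for Mcm6 and Mcm2 the knockout line lies above.

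The rest of the replication machinery was read from lists of genes with known roles. Of the 10 origin recognition and licensing genes, 8 were measured, 1 was at least 1.2-fold higher and 0 were as much lower, with a median of 0.03. Cdt1, which loads the ring, stood at 79.1 CPM in knockout and 62.5 CPM in control cells (0.34), Gmnn, the inhibitor of Cdt1, at 111 and 120 CPM (−0.10), and Mcmbp, which binds free MCM proteins, at 79.6 CPM in knockout and 69.6 CPM in control cells (0.19). Of 9 helicase activation genes, which include the remaining GINS subunits, 5 were measured with a median of 0.15. Ticrr, which helps recruit Cdc45, was the 1 at least 1.2-fold higher (20.3 CPM in knockout and 16.7 CPM in control cells, 0.28). It reached the floor of 20 CPM in the knockout library only. Gins4 stood at 38.8 and 37.5 CPM (0.05, −0.003 to 0.10), Topbp1 at 0.15 and Dbf4, the activator of the Cdc7 kinase, at 0.17. The paralogues Mcm8, Mcm9 and Mcmdc2, which lie outside the ring, were all below the floor; Mcm9 stood at 15.4 CPM in knockout and 13.1 CPM in control cells and Mcm8 at 14.0 and 13.1 CPM.

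At the fork, 5 of 5 scaffold and protection genes were measured with a median of 0.12, among them Wdhd1 (0.27, the 1 past 1.2-fold), Clspn (0.12) and Tipin (−0.09). All 12 DNA polymerase and primase genes were measured and 0 passed 1.2-fold in either direction, with a median of 0.08; Prim2 was highest (0.25) and Pold4 lowest (−0.18), and Pole3 and Pole4, which had the most UMIs, stood at 0.01 and −0.06. Of 11 genes for the clamp, its loader, single-strand binding and Okazaki maturation, 1 was at least 1.2-fold lower and the median was −0.004. That gene was Rpa3, the small subunit of the single-strand binding protein, at 67.9 CPM in knockout and 85.6 CPM in control cells (−0.33, −0.37 to −0.30). Rpa1, the large subunit of the same protein, stood at 0.26, Pcna, the clamp, at 0.16 and Rfc2, a clamp loader subunit, at −0.05.

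The S phase genes had a median ratio of 0.09 over 16 measured genes (Rrm1 0.29, Dut −0.12) and the G2 and M list 0.11 over 20 (Mki67 0.21, Top2a 0.13, Kif11 0.30, Ube2c −0.18). In each, 1 gene was at least 1.2-fold higher and 0 were as much lower. Of 8 genes of the E2F and RB families, 5 were measured with a median of 0.13; E2f3 stood at 0.31, E2f4 at 0.07 and E2f1 at 0.04 (−0.01 to 0.08). In these lists Rpa3 was thus, besides Mcm7, the only measured gene past 1.2-fold in the lower direction.

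Mcm7 lies between Cops6 and Ap4m1, both on the opposite strand. Its 3′ end overlaps the 3′ end of Cops6 by 64 bases, and the sources used here do not give the strand setting of the counting, so reads in the overlap could be shared. Cops6, a subunit of the COP9 signalosome, stood at 76.4 CPM in knockout and 79.4 CPM in control cells (−0.06, −0.09 to −0.02). Ap4m1, whose start overlaps that of Mcm7 by 421 bases, stood at 26.3 and 24.7 CPM (0.09). In single classes the Cops6 ratio lay between −0.25 (HSC-like, interval −0.45 to −0.06) and 0.20 (megakaryocyte-like). Neither neighbour had the Mcm7 ratio over all cells. The microRNA genes, Mir25, Mir93 and Mir106b, lie within Mcm7 on its strand and are not counted in these tables.

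Other members also have close neighbours. Gins2 and Gse1 overlap by 2758 bases at their 3′ ends, which leaves the Gins2 level uncertain; Gse1 stood at 0.11. Cdc45 and Ufd1 overlap by 209 bases at their starts (Ufd1 0.13), and Mcm4 and Prkdc start 465 bases apart on opposite strands (Prkdc 0.16).

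Transcript length moved with the ratio between the libraries. By longest coding transcript, the shortest of 3 equal-sized bins of measured genes had a median log2 ratio of −0.05, the middle bin 0.10 and the longest bin 0.16. Genes at least 1.2-fold lower made up 6.15% of the shortest, 1.58% of the middle and 0.394% of the longest bin. Mcm7, at 2962 bases, fell in the middle bin, where 11 of 2030 genes had a lower ratio. Mcm2, Mcm3, Mcm4, Mcm5, Cdc45 and Gins2 fell in the same bin. Gins1 was in the shortest bin, and Mcm6 and Mcm10, which had 2 of the highest ratios among the 10 genes, were in the longest. The part of length in the ratios of Mcm6 and Mcm10 was not tested.

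**Figure D5:**
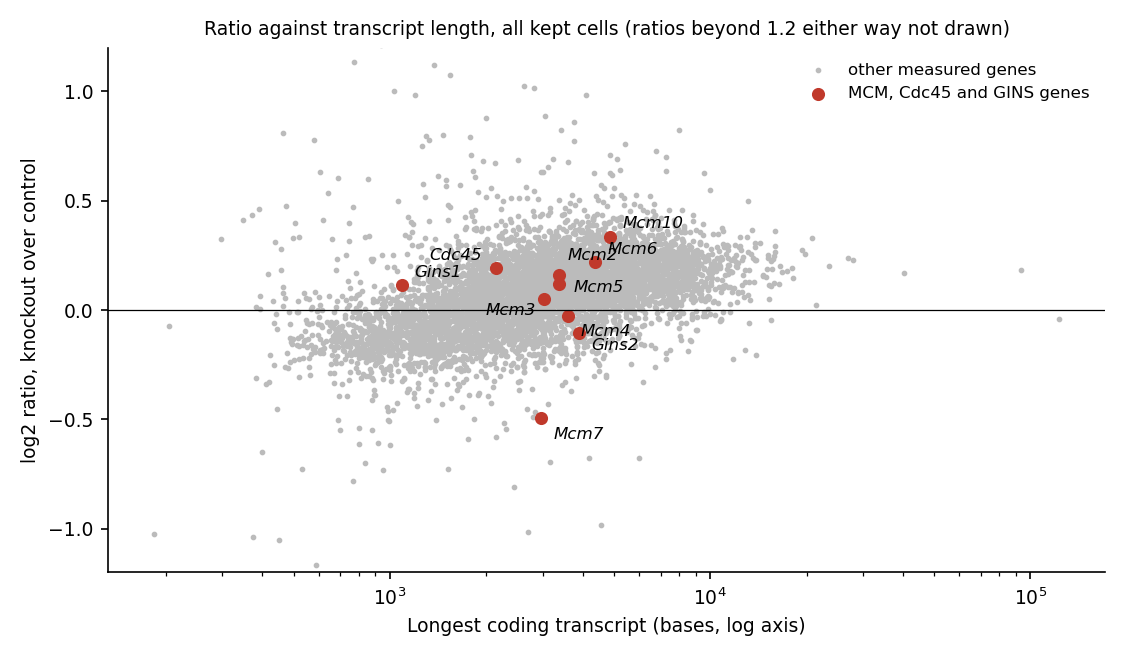
Log2 ratio of knockout over control (vertical axis) against the length of the longest coding transcript in bases (horizontal, log axis), for measured genes (grey) and the 10 genes (red, named); genes beyond 1.2 either way are not drawn. Mcm7, at 2962 bases and −0.50, lies below all but a few of the grey points of similar length, while the other 9 lie among them.

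Levels of the 10 genes over the 9 classes and both libraries (18 values, log2 CPM) were correlated in pairs as a description. The values share library and depth, and each class holds its own mix of cycling cells. The highest Pearson r was 0.89, between Mcm5 and Mcm3. Mcm7 had its highest r with Mcm4 (0.76) and its lowest with Mcm10 (0.17), Cdc45 (0.18) and Mcm6 (0.24). Among 2707 other genes, the 5 most like the mean of the 10 were Chaf1a (0.95), Usp1 (0.95), Cdt1 (0.93), Set (0.92) and Sf3a3 (0.91). The 5 most like Mcm7 were Cdk2ap1 (0.91), Naa15 (0.89), Nifk (0.88), Gpx4 (0.85) and Rpl26 (0.84). Each of the 5 most like Mcm7 was lower in the knockout library over all cells, with log2 ratios of −0.41 for Cdk2ap1, −0.18 for Naa15, −0.39 for Nifk, −1.65 for Gpx4 and −0.25 for Rpl26, and these ratios enter the 18 values.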

How the data were processed

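Raw UMI counts, as deposited by the authors, were made with Cell Ranger 6.1.2 from 10x 3′ v3.1 libraries on mm10, per the file headers, the labels' protocols and the submitters' processing notes. Cell calling and strand settings were not stated in the sources used here. UMIs remove PCR copies, and 3′ reads tell genes apart only near their transcript ends. Total depth was 152092210 UMIs in the knockout and 184683653 in the control library.

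Barcodes needed 500 genes or more and a mitochondrial share below 10% (6706 knockout, 8192 control). Scrublet (scanpy 1.11.5, expected rate 10%) marked 0.775% and 1.78% at its automatic thresholds; the control threshold, 0.433, was used for both and removed 66 and 146 cells. A cell took the class with the highest mean marker z-score if this exceeded 0.5 SD and the next class by 0.25 SD, which left 2013 knockout and 2079 control cells without a class; 995 and 1165 lay within 0.1 SD of a limit. Each of the 9 classes compared had 3 to 6 of its own markers among its 10 leading genes. This follows from the gating on those markers and is no separate check of the class names. Leiden clusters (leidenalg 0.10.2), made without the 10 genes, gave alternative classes.

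UMIs were summed per class and divided by the total to give CPM. Sums have exact Poisson, shares Clopper-Pearson and ratios exact conditional binomial intervals; ratios of ratios have normal intervals on the log scale. An interval of a median is the median of the members' bounds. The scripts were tested on simulated data. Members, lists and markers were chosen with earlier results of these data known. Beside the 10 genes, the text names for each list the 2 genes with most UMIs and those with the highest and lowest ratio, and 5 genes most like the set and most like Mcm7; the sort and genotype markers and genomic neighbours were added to these. Alternatives were stricter cell filters, doublets kept, only deep cells, means over cells, size factors, stricter gates, clusters and other floors.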

Additional observations from a re-analysis of the deposited data

Results flagged for a closer look

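Mcm3 and Mcm5 had ratios of opposite direction in different cell classes, beyond counting error in counts-per-million, and the difference between classes was not tested. The log2 ratio of Mcm3 was −0.16 in HSC-like and 0.22 in dendritic cell-like cells. That of Mcm5 was −0.24 in HSC-like cells and 0.31 in early erythroid-like cells. Relative to the median of all genes measured in the class, Mcm3 in dendritic cell-like cells stood at 0.16, and its own interval reached 0 in cells of at least 5000 UMIs (0.18, −0.04 to 0.40).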

How the results depend on the processing

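No paired analysis was possible because there is 1 library per genotype, and for the same reason no replicate could be left out. Mcm7 against the other five stayed below 0 in 58 of 58 alternative values over all cells and classes, between −0.81 and −0.24, and 55 of them moved by less than counting error. The exceptions were the mean over cells (−0.54 over all cells, −0.34 in basophil or mast-like cells) and the stricter gate (−0.31 in HSC-like cells). With median-of-ratios size factors the median of the 10 genes was 0.034 over all cells and 0.044 in neutrophil progenitor-like cells, Mcm3 turned to −0.032, and the number of members at least 1.2-fold higher was 0. That number was also 0 with a floor of 100 CPM, under which Mcm10 was not measured. Mcm7 over all cells lay between −0.58 and −0.42. The filter of at least 1000 genes and under 5% mitochondrial UMIs left 3954 knockout and 6725 control cells. Under this filter the HSC-like median of the 10 genes was 0.01, against −0.11. Ratios of single genes by class under the cell filters were added after seeing the data. Classes of fewer than 50 cells in the clustering gave no value. Depth limits Mcm10, Cdc45 and the GINS genes in the small classes, where ratios rest on as few as 35 UMIs in a library. Of 50 alternative values for single genes over all cells, 31 stayed within counting error.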
